A study of Mus musculus with 6 samples.

Results

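The genes described here are 42 cell cycle and DNA replication genes, chosen by symbol among the 23504 genes of an FPKM table (fragments scaled to gene length and to the fragments counted in a library) and ordered by their role from G1 to mitosis. They include cyclins, cyclin-dependent kinases and their inhibitors, replication and nucleotide synthesis genes, and genes of the mitotic spindle and its checkpoint. All 42 symbols matched 1 row each. The RNA came from BMMs, macrophages grown with M-CSF from the bone marrow of young adult male C57BL/6 mice. The treated group, with 3 libraries, received DASA-58, a small molecule that activates the glycolytic enzyme PKM2, together with RANKL, the cytokine that turns macrophages into osteoclasts. The control group, with 3 libraries, received the solvent DMSO. RNA was taken after 3 days in both groups. The results text of the study describes RANKL in both groups, whereas the wording of its methods leaves RANKL in the DMSO wells unclear. The compound is called DASA-58 in the labels and DASA-48 in the methods, and no dose is labelled. The labels do not say whether the 3 libraries of a group came from separate mice or cultures, so the p-values measure only the spread between these libraries.

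Proliferating cells pass through G1, when D-type cyclins with CDK4 or CDK6 start to free E2F factors from the retinoblastoma protein, and through S phase, when cyclin E and cyclin A with CDK2 drive the copying of DNA by a machinery built around the MCM helicase and the PCNA clamp. Cyclin B with CDK1 then starts mitosis, and the anaphase-promoting complex ends it by marking cyclin B and securin for destruction. In bone marrow macrophages M-CSF keeps precursors dividing, and RANKL drives them to leave the cycle as they fuse into osteoclasts. The comparison asked whether the transcripts of these genes differed between DASA-58 and DMSO, phase by phase. Transcript levels in bulk RNA at 3 days do not measure division, the share of cells in a phase or cell number. Precursor proliferation itself was thus not tested here. The study examined proliferation of BMMs under DASA-58 with an MTT assay, which is not part of these data.

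The recovered depth lay between 18191560 and 18968556 fragments per library, and the 42 genes held between 83 (Ccnd2) and 8868 fragments (Pcna) each in a library. The mean chi-square per gene between libraries of 1 group was 2.50 to 3.75 over 10874 genes, where sampling alone gives 1, so no library was a copy of another. Over 41 of the cell cycle genes it was 2.31 to 5.17 within groups and 6.67 to 8.85 between groups. Over the 10874 genes it was 10.7 to 13.2 between groups, higher than over the cell cycle genes. For the same fold change this value grows with the fragments of a gene, and Lyz2 alone held 352278 to 443521 per library. The sets were not matched for fragments, so the means do not show which set changed less. Macrophage markers led by Lyz2 summed to 16480 to 17320 FPKM with DMSO and 17430 to 19740 FPKM with DASA-58, a sum carried by Lyz2, whose groups overlapped. Of these 9 macrophage markers 4 rose and 1 fell at an adjusted p under 0.05 (limma), a threshold that 11.5% of all genes tested passed. All 8 osteoclast markers tested fell by this threshold, with a median log2 fold change of -0.88. The 9 osteoclast markers listed summed to 773 to 828 FPKM with DMSO and 446 to 465 FPKM with DASA-58. Of the 8 markers of neutrophils and their precursors tested, 4 fell and 0 rose by this threshold. None of the 9 listed was at 0 in all libraries, and these summed to 176 to 179 FPKM with DMSO and 138 to 144 FPKM with DASA-58. Markers of T and NK cells, erythroid cells, mast cells and basophils, dendritic cells and progenitors summed to less than 1 FPKM in each library, and stromal markers led by Col1a1 to 34.6 to 36.8 FPKM with DMSO and 35.03 to 35.97 FPKM with DASA-58. B cell markers summed to 1.80 to 2.12 FPKM for DMSO and to 2.11 to 2.40 FPKM for DASA-58, and endothelial markers led by Kdr to 1.22 to 1.35 FPKM and 0.818 to 0.908 FPKM, where only the endothelial sums did not overlap. The part of these shifts in the results below was not tested, and in bulk RNA fewer cells of a type and less RNA per cell cannot be told apart.

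Cell cycle promoters carry a few short motifs, namely E2F sites at G1/S genes and the CHR element and CCAAT boxes at G2/M genes. RefSeq promoter windows (GRCm38.p6, 250 bases before to 50 bases after a gene start) were given for 34 of the 42 genes, all but Ccnd1, Ccnd2, Ccne2, Ccna2, Gins2, Mcm4, Aurkb and Tpx2. The letters TTTCCCGC were found, on either strand, in 4 of these 34 genes (11.8%) and in 1.24% of the 27025 genes with a window. The other E2F form, TTTGGCGC, was found in 4 genes (11.8%) against 0.585%, and 7 genes held at least 1 of both forms (20.6% against 1.80%). The CHR letters TTTGAA were found in 11 genes (32.4%) against 20.2%, and CCAAT in 25 genes (73.5%) against 41.1%. No motif lies within another, and a match is a description of letters, not of a bound site. Sequences are shown for the 2 genes that passed the test, Pcna and Cdc20, and for Mcm5 and Mki67, genes of the same role groups whose level was nearly equal in both groups. They run 5′ to 3′ on the strand of the gene, stop before the annotated gene, and carry matched letters in capitals (TTTGGCGC, TTTGAA or CCAAT, or their reverse complement). For Pcna only the bases around its match, which lie inside the gene as GENCODE annotates it, are shown, from chr2:132253250-132253279 on the minus strand. The Mcm5 stretch is chr8:75109259-75109508 on the plus strand, and those of Cdc20 and Mki67 are chr4:118437353-118437593 and chr7:135716380-135716629 on the minus strand.
Pcna: accacgggtacgATTGGtccttgaggagag
Mcm5: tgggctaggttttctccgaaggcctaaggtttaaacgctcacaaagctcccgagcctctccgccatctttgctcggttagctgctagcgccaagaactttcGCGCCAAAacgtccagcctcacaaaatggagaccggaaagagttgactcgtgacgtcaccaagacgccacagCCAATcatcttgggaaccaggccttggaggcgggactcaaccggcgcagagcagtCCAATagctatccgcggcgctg
Cdc20: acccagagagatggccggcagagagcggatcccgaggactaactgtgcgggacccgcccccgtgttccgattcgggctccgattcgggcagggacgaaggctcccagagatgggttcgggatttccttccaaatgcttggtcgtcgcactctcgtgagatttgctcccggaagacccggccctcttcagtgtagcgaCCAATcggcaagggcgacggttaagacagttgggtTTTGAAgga
Mki67: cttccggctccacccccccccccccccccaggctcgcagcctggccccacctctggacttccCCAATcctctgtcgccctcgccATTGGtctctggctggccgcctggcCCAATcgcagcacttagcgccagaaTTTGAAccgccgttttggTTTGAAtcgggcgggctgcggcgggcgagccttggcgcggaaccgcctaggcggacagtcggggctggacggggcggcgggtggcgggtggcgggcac
The Cdc20 and Mki67 stretches both hold CHR letters and CCAAT letters, although Cdc20 passed the test and Mki67 did not. The Mcm5 stretch holds an E2F form that is not in the windows of Pcna, Cdc20 or Mki67.

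Most cell cycle genes were at nearly the same level with DASA-58 as with DMSO. In 41 genes the mean over all libraries reached 1 FPKM, the filter for the test, and of these genes 1 rose (Pcna, the sliding clamp of DNA polymerase) and 1 fell (Cdc20, the activator of the anaphase-promoting complex) at an adjusted p under 0.05 (limma on log2(FPKM + 1), Benjamini-Hochberg adjustment over 10965 genes). These 2 genes are 4.88% of the 41, whereas 11.5% of all genes tested passed, 7.28% of them lower and 4.24% higher. The mean with DASA-58 was 90% to 110% of the DMSO mean for 38 of the 42 genes, and this held for 70.7% of all genes tested. The 4 genes outside that range were Cdk6, Ccne2, Pcna and Cdc20, and the widest were 88.0% for Cdc20 and 112% for Pcna. The median log2 fold change was 0.01 over the 41 genes and -0.03 over all genes tested, and the median size of the change was 0.06 and 0.08. The cell cycle genes and all genes tested were not matched for level or standard error, which limits the comparison of these shares and sizes.

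The precision of these values was high for a design of 3 against 3. The standard error of the log2 fold change had a median of 0.04 over the 41 genes and 0.05 over all genes tested, and the SD within a group was 3.31% of the mean in the median. The 95% interval of the difference held 0 for 34 of the 41 genes and lay wholly within 0.2 of 0 on the log2 scale for 32 of them, which is 87.1% to 115% of the DMSO level. At an unadjusted p under 0.05 (limma) there were 7 genes (17.1%, against 27.8% of all genes tested), namely Cdk4, Cdk6, Mcm4, Pcna, Rrm2, Tk1 and Cdc20, so that the G1/S, inhibitor and G2/M groups held 0 by this measure too. With voom weights on the recovered fragments, an alternative added after seeing the data, 4 genes fell (Cdc20, Cdk4, Cdk6 and Ccnd1) and 2 rose (Pcna and Tk1), while 19.0% of 10874 genes passed. The intervals reached down to -0.33 for Ccnd1 and up to 0.32 for Ccne2. The libraries of both groups did not overlap for 8 of the 41 genes (19.5%), against 33.4% of all genes tested. Of these 8 genes, Cdk4, Cdk6, Mcm4 and Cdc20 were lower with DASA-58, and Pcna, Tk1, Kif11 and Tpx2 were higher.

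**Figure D1:**
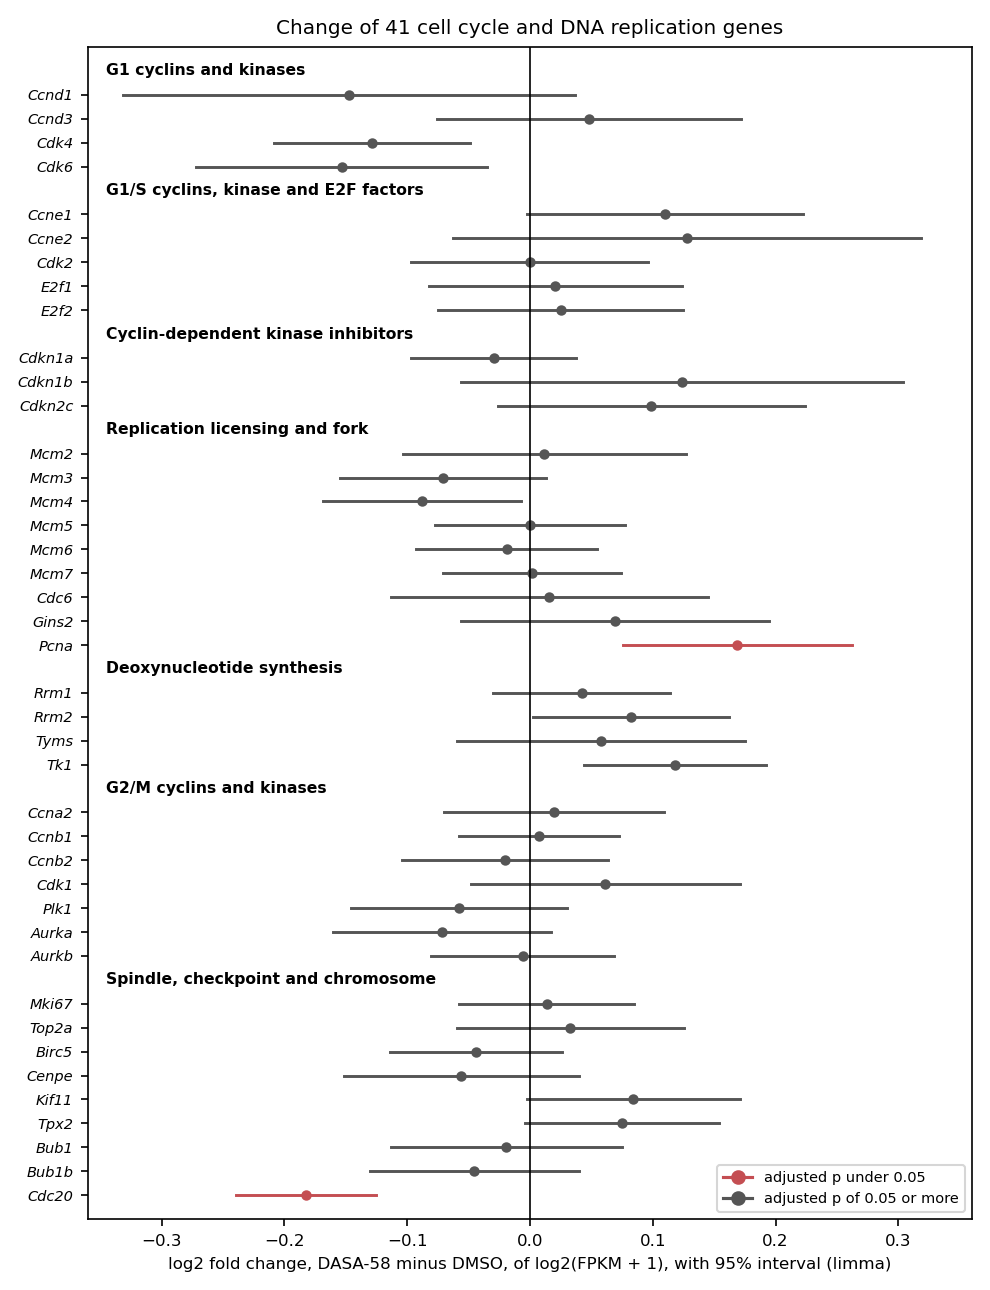
The log2 fold change (DASA-58 minus DMSO, of log2(FPKM + 1), points) is plotted for 41 genes by role, with the 95% interval from limma as lines and genes at an adjusted p under 0.05 in red. Most points lie close to 0, and the only red points are Pcna, above 0, and Cdc20, below 0.

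The G1 cyclins and kinases had the lowest median of the role groups, at -0.14. However, 0 of the 4 genes tested passed the adjusted threshold, against 11.5% of all genes tested. Cdk4, the G1 kinase with the highest level of this group, was listed at 71.8, 75.5 and 70.7 FPKM in the DMSO libraries and at 65.5, 68.2 and 65.4 with DASA-58. All 3 DASA-58 libraries were below the 3 DMSO libraries, and the log2 difference was -0.13 (SE 0.034, limma adjusted p 0.051), which missed the threshold of 0.05 narrowly and passed it under 5 of 18 alternative settings. Cdk6, its close relative, was listed at 8.87, 8.41 and 9.31 FPKM in the DMSO libraries and 7.62, 8.31 and 7.69 with DASA-58. Its groups did not overlap either, with a log2 difference of -0.15 (SE 0.051, limma adjusted p 0.097). The exact permutation test gave p = 0.1 for both kinases, the smallest value that 3 libraries against 3 can give. Part of the Cdk4 exons (641 bases) lies opposite exons of Tspan31, and part of the Cdk6 exons (368 bases) opposite Gm17590. The strand setting of the counting was not given. In all, 15 of the 42 genes share exon bases with another gene, and not each of them is named here.

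Ccnd1 encodes cyclin D1, the D-type cyclin with the highest level in these cells. It was listed at 25.3, 24.5 and 25.0 FPKM in the DMSO libraries and at 20.2, 25.9 and 21.6 with DASA-58. DASA-58 replicate 2 was above all DMSO libraries, whereas the other two DASA-58 libraries were below them. The log2 difference was -0.15 (SE 0.080, limma adjusted p 0.27), and without DASA-58 replicate 2 it was -0.25 with an adjusted p of 0.022. Ccnd3, cyclin D3, was at 9.86 ± 0.666 FPKM in the DMSO libraries and 10.2 ± 0.346 with DASA-58 (SD, n = 3), which overlapped. Ccnd2, cyclin D2, was below the filter of 1 FPKM and was not tested with limma, at 0.549 FPKM in the DMSO libraries and 0.5497 with DASA-58. Of the summed FPKM of the 3 D-type cyclins, Ccnd1 made up 70.6% with DMSO and 67.7% with DASA-58. Of the Ccnd1 exons 1100 bases lie opposite exons of LTO1, and the strand setting was not given.

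At the G1/S step 0 of 5 genes passed the test, against 11.5% of all genes tested. The median log2 fold change of these 5 genes was 0.03. Ccne1 and Ccne2 encode the E-type cyclins, which bring cells into S phase. Ccne1 was at 13.4, 13.4 and 12.9 FPKM in the DMSO libraries and 14.9, 14.9 and 13.4 with DASA-58, and DASA-58 replicate 3 lay within the DMSO range (log2 difference 0.11, limma adjusted p 0.19). Ccne2 had the widest interval among the genes of this step, from -0.06 to 0.32. Cdk2, their kinase, was at 12.4 ± 0.502 FPKM in the DMSO libraries and 12.4 ± 0.326 with DASA-58, a log2 difference of -0.0003 with an interval of -0.10 to 0.10. The activator factors E2f1 and E2f2 differed by 0.02 and 0.03, with intervals of -0.08 to 0.12 and -0.08 to 0.13.

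Inhibitors of cyclin-dependent kinases hold cells in G1, and 0 of 3 passed the test, against 11.5% of all genes tested. Cdkn1a, the p21 gene that p53 induces, had the highest level of all 42 genes. It was listed at 199, 211 and 201 FPKM in the DMSO libraries and at 197, 201 and 200 with DASA-58. The groups overlapped, with a log2 difference of -0.03 and an interval of -0.10 to 0.04. Cdkn1b (p27) was at 12.9, 10.3 and 12.4 FPKM in the DMSO libraries and 12.3, 13.4 and 13.3 with DASA-58. DMSO replicate 2 stood below the other five libraries, and the log2 difference of 0.12 had an adjusted p of 0.35 (limma). Cdkn2c (p18), an inhibitor of CDK4 and CDK6, was at 44.7 ± 2.05 FPKM in the DMSO libraries and 48.0 ± 3.18 with DASA-58, a log2 difference of 0.10 with an interval of -0.03 to 0.22.

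**Figure D2:**
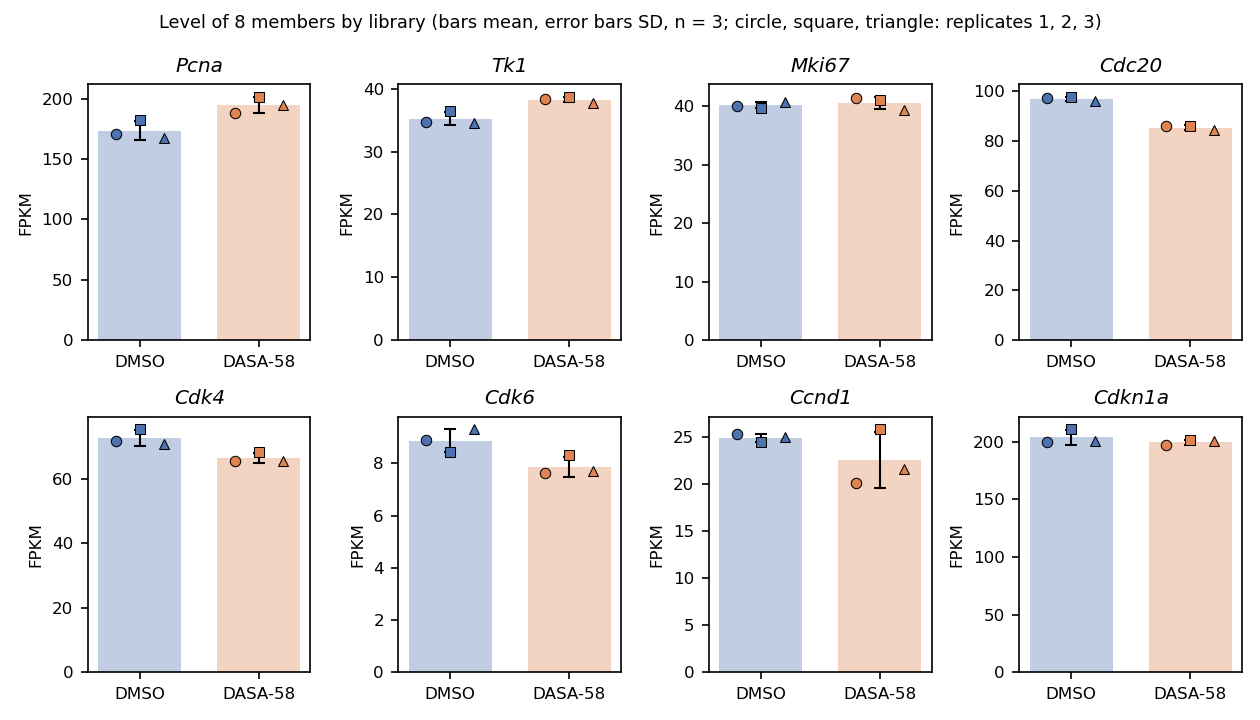
FPKM of 8 genes is plotted by library for DMSO (blue) and DASA-58 (orange), with bars for the mean, error bars for the SD (n = 3), and a circle, square and triangle for replicates 1, 2 and 3. Pcna and Tk1 were higher and Cdc20, Cdk4 and Cdk6 lower with DASA-58 in every library, whereas Mki67, Cdkn1a and Ccnd1 overlapped between the groups.

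Replication genes were led by Pcna, which rose. Pcna was listed at 171, 182 and 167 FPKM in the DMSO libraries and at 188, 202 and 195 with DASA-58. All DASA-58 libraries were above all DMSO libraries, and the mean went from 173 ± 8.02 to 195 ± 6.64 FPKM (SD, n = 3). The log2 difference was 0.17 (SE 0.040, interval 0.08 to 0.26, limma adjusted p 0.035), and the call was lost under 8 of 18 alternative settings, with adjusted p-values from 0.00041 to 0.14. These 8 settings include leaving out DMSO replicate 1 or 3 or any 1 of the DASA-58 libraries.

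The MCM genes encode the 6 subunits of the replicative helicase, and 0 of 6 passed the test, against 11.5% of all genes tested. Mcm5 was listed at 52.7, 54.0 and 53.03 FPKM in the DMSO libraries and 51.1, 54.7 and 54.0 with DASA-58, a log2 difference of 0.00 with an interval of -0.08 to 0.08. Mcm2, Mcm6 and Mcm7 had log2 differences of 0.01, -0.02 and 0.00. Mcm3 and Mcm4 were lowest of the subunits, with -0.07 (limma adjusted p 0.25) and -0.09 (limma adjusted p 0.15). Mcm4 was at 32.1, 33.3 and 32.9 FPKM in the DMSO libraries and 29.7, 31.7 and 30.9 with DASA-58, which did not overlap. Thus 5 of the 6 subunits overlapped between the groups, where 33.4% of all genes tested did not. The signs of these 5 subunits were mixed. Mcm7 shares exon bases with other genes on both strands, among them the microRNA genes Mir25 and Mir93.

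Cdc6, which loads the helicase at origins, was at 5.89 ± 0.305 FPKM in the DMSO libraries and 5.96 ± 0.353 with DASA-58. Gins2, a subunit of the active helicase, was at 11.7 ± 0.318 and 12.3 ± 0.920 FPKM, and 2758 bases of its exons lie opposite exons of Gse1. Neither gene passed the test, with log2 differences of 0.02 and 0.07. The licensing and fork genes together had a median log2 fold change of 0.00.

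The genes of deoxynucleotide synthesis all had a log2 difference above 0, also under every alternative setting tried. However, 0 of 4 passed the test, against 11.5% of all genes tested. Tk1, the thymidine kinase of S phase cells, was listed at 34.7, 36.4 and 34.5 FPKM in the DMSO libraries and 38.4, 38.6 and 37.8 with DASA-58. Its groups did not overlap, and the log2 difference of 0.12 (SE 0.032, limma adjusted p 0.053) missed the threshold narrowly and passed it under 6 of 18 alternative settings. Rrm1 and Rrm2, the subunits of ribonucleotide reductase, differed by 0.04 and 0.08 (limma adjusted p 0.43 and 0.17), and Tyms, thymidylate synthase, by 0.06 (limma adjusted p 0.51). In Rrm2, DASA-58 replicate 1 at 58.5 FPKM lay below DMSO replicate 2 at 58.8 FPKM. The median of the group was 0.07, and all 3 DASA-58 libraries had positive group means, of 0.04, 0.11 and 0.07, against -0.02, 0.04 and -0.02 in the DMSO libraries. DMSO replicate 2 thus reached the lowest DASA-58 library.

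Among the G2/M cyclins and kinases 0 of 7 passed the test, against 11.5% of all genes tested. All 7 overlapped between the groups, where 33.4% of all genes tested did not. Cdk1, the mitotic kinase, was listed at 34.3, 36.7 and 37.0 FPKM in the DMSO libraries and 36.1, 39.9 and 36.8 with DASA-58, a log2 difference of 0.06 with an interval of -0.05 to 0.17. Its cyclins Ccnb1 and Ccnb2 differed by 0.01 and -0.02, and Ccna2 by 0.02. The mitotic kinases Plk1, Aurka and Aurkb differed by -0.06, -0.07 and -0.01. The intervals of these 7 genes lay between -0.16 and 0.17.

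The genes of the spindle, its checkpoint and mitotic chromosomes included the gene with the smallest p of the 42, Cdc20, which fell. Cdc20 was listed at 97.3, 97.7 and 96.2 FPKM in the DMSO libraries and at 86.0, 85.9 and 84.4 with DASA-58. The libraries of a group lay close together, at 97.1 ± 0.777 and 85.4 ± 0.883 FPKM (SD, n = 3), and all DASA-58 libraries were lower. The log2 difference was -0.18 (SE 0.024, interval -0.24 to -0.13, limma adjusted p 0.0037), and the call held under all 18 alternative settings, with adjusted p-values from 0.00023 to 0.023. Only 53 exon bases of Cdc20 lie opposite another gene, Elovl1.

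The other 8 genes of this group did not pass the test. Mki67, whose product Ki-67 marks cycling cells, was listed at 40.1, 39.8 and 40.8 FPKM in the DMSO libraries and 41.4, 41.01 and 39.4 with DASA-58. The groups overlapped, with a log2 difference of 0.01 and an interval of -0.06 to 0.08. Top2a, which untangles sister chromatids, was at 49.7 ± 2.66 and 50.8 ± 0.151 FPKM. Kif11 and Tpx2, which build the bipolar spindle, did not overlap between the groups and differed by 0.08 and 0.07 (limma adjusted p 0.19 and 0.20). The checkpoint kinase genes Bub1 and Bub1b, the kinetochore motor gene Cenpe and the survivin gene Birc5 differed by -0.02, -0.05, -0.06 and -0.04, all with overlap.

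**Figure D3:**
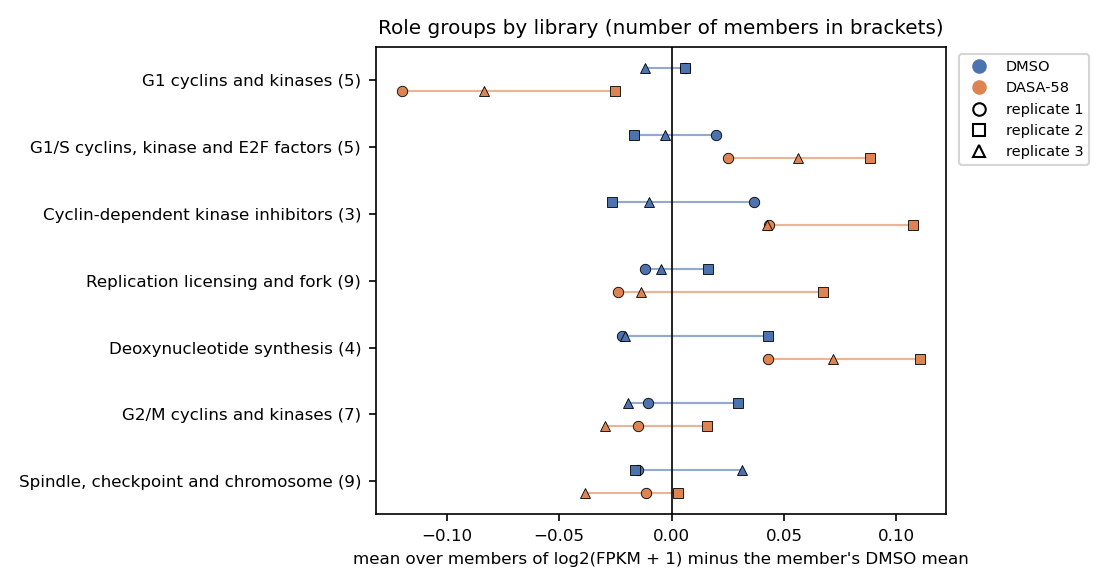
Each point is the mean over the genes of a role group in 1 library of log2(FPKM + 1) minus the DMSO mean of the gene, for DMSO (blue) and DASA-58 (orange), with a circle, square and triangle for replicates 1, 2 and 3. The G1 group lies below 0 in all DASA-58 libraries (-0.12, -0.03 and -0.08), and DASA-58 replicate 2 is the highest DASA-58 library in every role group.

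By library, the mean over all 42 genes differed from the DMSO mean by -0.0038, 0.0059 and -0.0020 in DMSO replicates 1, 2 and 3, and by -0.014, 0.043 and -0.0095 in DASA-58 replicates 1, 2 and 3. DASA-58 replicate 2 thus stood above the other libraries over these genes. Without it, 2 genes were lower (Ccnd1 and Cdc20) and 0 were higher at an adjusted p under 0.05. The G1 group had means of -0.12, -0.03 and -0.08 with DASA-58, against 0.01, 0.01 and -0.01 with DMSO, which did not overlap. The G1/S group had 0.03, 0.09 and 0.06 with DASA-58 against 0.02, -0.02 and -0.0027 with DMSO, also without overlap. The inhibitors had 0.043, 0.107 and 0.043 against 0.037, -0.03 and -0.01, where the lowest DASA-58 mean (0.0425) was close to the highest DMSO mean (0.0366). Taken singly, 2 of the 4 G1 genes tested, 0 of the 5 G1/S genes and 0 of the 3 inhibitors did not overlap, against 33.4% of all genes tested. For the deoxynucleotide synthesis, licensing and fork, G2/M and spindle groups the libraries of both treatments overlapped.

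Further cell cycle genes outside the 42 gave low counts as well. Of 64 other replication genes tested, 2 fell and 0 rose, with a median log2 fold change of 0.01. At an unadjusted p under 0.05 (limma) there were 6 (9.38%), against 27.8% of all genes tested. The genes that fell were Tipin (-0.19, limma adjusted p 0.033) and Timeless (-0.20, limma adjusted p 0.048), the partners of the fork protection complex. Of 66 other mitotic genes tested, 2 fell and 1 rose, with a median of 0.02, and 12 (18.2%) had an unadjusted p under 0.05 (limma). Those that fell were Espl1 (-0.16, limma adjusted p 0.034), separase, which cuts cohesin at anaphase, and Ube2c (-0.13, limma adjusted p 0.040), the ubiquitin-conjugating enzyme that works with the anaphase-promoting complex. The gene that rose was Pbk, a mitotic kinase, from 27.9 ± 0.659 to 32.1 ± 0.636 FPKM (0.19, limma adjusted p 0.0094). Over both lists 3.85% of 130 genes passed, against 11.5% of all genes tested. The groups did not overlap for 15.6% of the replication and 27.3% of the mitotic genes, against 33.4% of all genes tested. Of 18 alternatives, Tipin lost the call under 12, Timeless under 13, Espl1 under 12 and Ube2c under 11, centring on the median among them. Pbk kept the call under all 18.

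Regulators of G1 entry and exit included the member of these lists with the largest change, Myc. Myc encodes a transcription factor that promotes growth and G1 entry. It was listed at 27.4, 27.4 and 24.3 FPKM in the DMSO libraries and 16.1, 18.4 and 16.1 with DASA-58. The log2 difference was -0.62 (SE 0.065, limma adjusted p 0.0012), and the groups did not overlap. Among the 47 genes of this list that were tested, 4 fell and 1 rose, with a median of 0.02. Besides Myc, these were Gadd45b (-0.36, limma adjusted p 0.0067), a stress sensor, Btg1 (-0.17, limma adjusted p 0.026), which restrains proliferation, Fzr1 (-0.14, limma adjusted p 0.030), the other activator of the anaphase-promoting complex, and the gene that rose, E2f5 (0.21, limma adjusted p 0.042). Fzr1 was named after its value was seen and was not followed under the alternatives. The share that passed was 10.6% of the 47, against 11.5% of all genes tested. Myc kept the call under all 18 alternatives, whereas Gadd45b lost it under 1 (no variance shrinkage, adjusted p 0.067) and Btg1 and E2f5 under 11 each.

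Of 27 genes of the p53 list tested, 4 fell and 0 rose (limma, 14.8% against 11.5% of all genes tested, and 10 or 37.0% against 27.8% at an unadjusted p under 0.05), with a median of -0.09, while the classical p53 target Cdkn1a did not pass the test. Those that fell were Pltp (-0.47), Pmaip1 (-0.35), Trp53 itself (-0.18) and Ptp4a3 (-0.25, limma adjusted p 0.047). Ptp4a3 was named after its value was seen and was not followed under the alternatives. Pmaip1 lost the call without variance shrinkage (adjusted p 0.080), and Pltp and Trp53 kept it under all 18 alternatives. Trp53 was at 46.8 ± 1.33 FPKM in the DMSO libraries and 41.2 ± 0.396 with DASA-58 (SD, n = 3, limma adjusted p 0.0098). Trp53 encodes p53 and is not a target in the strict sense, and Pltp, a lipid transfer protein gene, is also a target of the sterol receptor LXR.

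**Figure D4:**
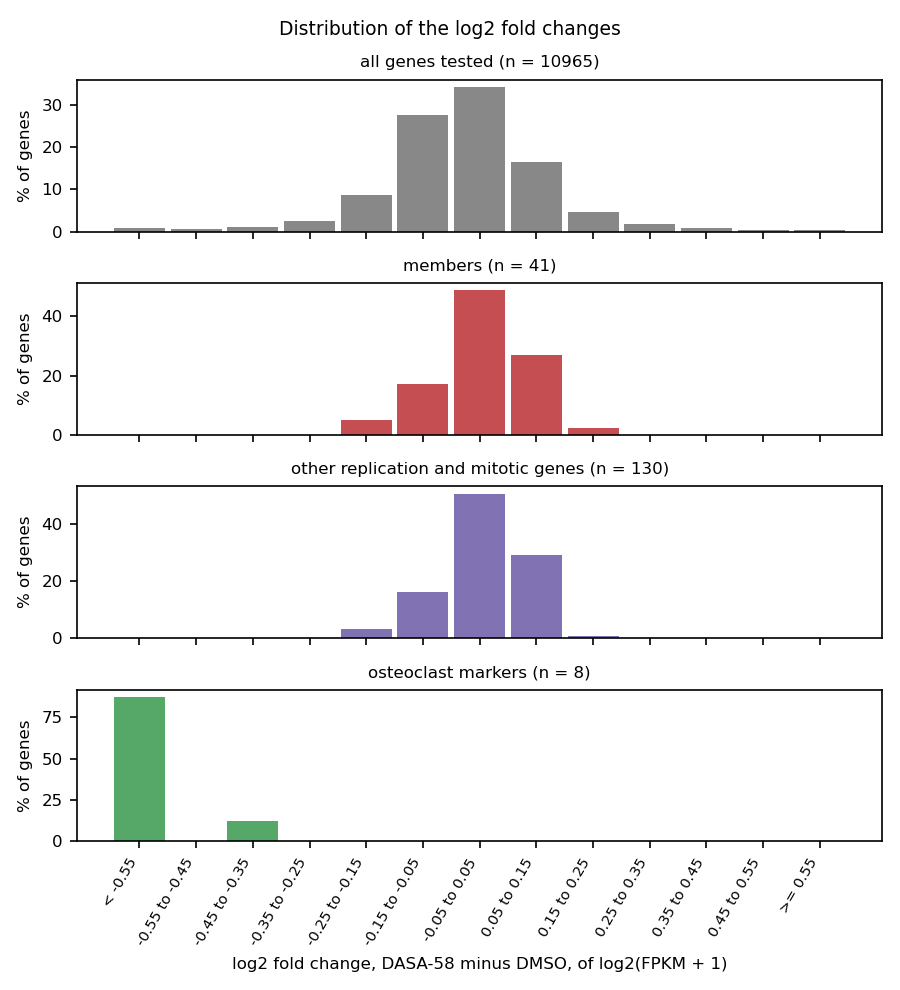
The share of genes (%) is plotted by log2 fold change (DASA-58 minus DMSO, bins of 0.1) for all 10965 genes tested, 41 cell cycle and DNA replication genes, 130 other replication and mitotic genes and 8 osteoclast markers. The cell cycle genes lie in the 5 bins from -0.25 to 0.25, as do the other replication and mitotic genes, whereas 7 of the 8 osteoclast markers lie below -0.55.

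On the log2 scale, 20 of the 41 genes (48.8%) changed by less than 0.05 in either direction, against 34.2% of all genes tested, and 66 of the 130 other replication and mitotic genes (50.8%) did so. These sets were not matched for level or standard error. None of the 41 or of the 130 genes lay beyond 0.25 in either direction. In the same libraries, Mmp9, the osteoclast marker with the highest level, went from 413 ± 17.5 to 246 ± 7.94 FPKM, 59.6% of the DMSO level.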

How the data were processed

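RNA-seq was done on 3 DMSO and 3 DASA-58 libraries of BMMs after 3 days of treatment. The authors deposited FPKM values for 23504 genes, normalized to gene length and to the fragments counted in each library. The submitters' processing notes list HISAT2 2.1.0, HTSeq 0.6.0 and the mouse build mm8 without their roles. The annotation, the build behind the counts and the strand setting were not given in the sources used here, and 90.9% of the genes gave whole fragments (within 0.02) at the exon lengths of GENCODE mouse release M21 (GRCm38), from which symbols were taken for 23455 identifiers and not for 49. Whole fragments of the 42 genes were recovered at these lengths for 40 genes and at a fitted length for Cdkn1a and Kif11. They give the depth and the counting error, and a count of 0 allows 3 fragments. Columns left unmapped numbered 0.

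Groups were compared from the deposited FPKM on log2(FPKM + 1) with limma 3.58.1 in R 4.3.3 (lmFit, eBayes with a trend in the variance, two-sided, no block) over 10965 genes whose mean reached 1 FPKM, with Benjamini-Hochberg adjustment and a threshold of 0.05. Fold changes on this scale understate those of low genes. The study's methods name Student's test for 2 groups, of which limma is the moderated form across genes. An exact permutation test (SciPy 1.17.1) was added for single genes. Count models were not used for FPKM. The statistics were tested on simulated data.

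The named genes are the 42 genes and, of each wider list and direction, the 3 genes with the smallest p among those past the threshold. The genes and lists were chosen with earlier results of these data known. Alternatives were pseudocounts of 0.1 and 5, a filter at 5 FPKM or none, 4 scalings (equal totals of the libraries, median centring, quantile normalization and a trimmed mean of ratios), no variance shrinkage, no trend, the replicate block and each library left out. Voom weights on the recovered fragments were added after seeing the data. Promoters came from RefSeq (GRCm38.p6), and tables and figures were made with pandas 2.3.3 and matplotlib 3.10.9.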

Additional observations from a re-analysis of the deposited data

How the results depend on the processing

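Under 18 alternative settings Cdc20 kept its call, and 20 of the 41 genes kept both their direction and their side of the threshold. Of the 41 genes, 1 was lower in the reported fit and 1 higher. The lower genes numbered 2 with a filter at 5 FPKM, with quantile normalization or equal library totals and with the replicate block, and 4 with voom. The higher genes numbered 0 without the filter, without the trend and without variance shrinkage, and 2 with a filter at 5 FPKM, median centring, the trimmed mean, quantile normalization and voom. With 1 library left out, the lower genes numbered 1 to 2 and the higher genes 0 to 2. Cdk4 passed under 5 alternatives, Tk1 under 6, Ccnd1 under 2 and Cdk6 under 1 (voom), and Pcna did not under 8, including no variance shrinkage (adjusted p 0.14).

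Over all genes tested, 798 were lower and 465 higher. Without the filter these were 372 and 257, and without variance shrinkage 314 and 227. With voom they were 1327 and 742, without the trend 515 were lower, and with 1 library left out they were 387 to 603 and 272 to 375. The split between directions moved with the scaling, from 63.2% lower to 45.8% with median centring (504 lower), 45.9% with the trimmed mean (507 lower) and 49.5% with quantile normalization, and up to 71.3% with equal library totals. The median log2 fold change of all genes tested lay between -0.0423 and -0.0008 under these 4 scalings. For the 41 genes it was 0.0118 in the reported fit, -0.0046 with equal library totals and 0.0366 with quantile normalization. With median centring and the trimmed mean it was 0.0385. Some role group medians moved too. The G1/S median was 0.025 in the reported fit, 0.0089 with equal library totals and 0.053 with quantile normalization. Quantile normalization took the spindle median from -0.0193 to 0.0139.

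Genes near 0 turned their sign without passing any test. With quantile normalization Cdk2 was at 0.0271, Mcm6 at 0.0005, Aurkb at 0.0185 and Bub1 at 0.0139. With median centring Cdk2 was at 0.0264, Mcm6 at 0.0077, Ccnb2 at 0.0067, Aurkb at 0.0209 and Bub1 at 0.0074. With the trimmed mean Cdk2 was at 0.0260, Mcm6 at 0.0089, Ccnb2 at 0.0081, Aurkb at 0.0219 and Bub1 at 0.0079. With equal library totals Mcm2 was at -0.0046, Mcm5 at -0.0169, Mcm7 at -0.0153, Ccnb1 at -0.0099 and Mki67 at -0.0035. With voom Cdk2 was at 0.0003 and Mcm5 at -0.0. With 1 library left out, the log2 differences ranged from -0.0223 to 0.0296 for Cdk2, -0.0192 to 0.0291 for Mcm5, -0.0110 to 0.0241 for Mcm7, -0.0251 to 0.05 for Cdc6, -0.0185 to 0.0183 for Aurkb, -0.0016 to 0.0732 for Top2a, -0.0091 to 0.0518 for E2f2, -0.0255 to 0.0494 for Mcm2, -0.0362 to 0.0005 for Mcm6, -0.0515 to 0.0126 for Ccnb2, -0.0013 to 0.0863 for Ccnd3, -0.0161 to 0.0641 for E2f1, -0.0023 to 0.0484 for Ccna2, -0.0068 to 0.0178 for Ccnb1, -0.0489 to 0.0078 for Bub1 and -0.0002 to 0.0343 for Mki67. The cause of these turns was not tested.

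No shared effect of the replicate number was seen: the deviations of same-numbered libraries from their group means correlated at -0.015, 0.016 and -0.016. Whether the cultures were paired is not labelled and cannot be told from these values. With the replicate block, 957 genes passed instead of 1263, and Cdk4 joined Cdc20 and Pcna.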
